A study of Mus musculus with 27 samples.

Results

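Acetylation of lysine 9 of histone H3 (H3K9ac) was mapped in wild-type primary mouse hepatocytes kept in normoxia or put through hypoxia-reperfusion (HR), and the peaks of the 2 conditions were compared. The comparison uses 2 of the 27 samples of the series, 1 library per condition, and 14106 of the 54935 peaks in its 8 peak lists: 6513 in normoxia and 7593 in HR. Every peak of both lists was taken. Peaks were described by number, width and position relative to genes, by their rank within their own list, and by whether they overlapped the other list by at least 1 bp. The study asked about ATP citrate lyase, the cytosolic and nuclear source of acetyl-CoA from citrate, in liver whose blood flow is stopped and then restored. Besides 11 CUT&RUN samples of hepatocytes, in which an antibody directs a nuclease to cut the DNA around its target, the series holds 16 RNA samples of liver tissue, which were not used here. Both groups described here had wild-type Acly and the same H3K9ac antibody. Their cells were isolated from mouse liver and entered normoxic or HR culture a day later. The lengths of hypoxia and reperfusion, the age and sex of the mice and whether cells were pooled are not given in the sources used here.

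H3K9ac is written by acetyltransferases that take the acetyl group from acetyl-CoA, and it is removed by deacetylases. It lies mostly around the starts of transcribed genes, where the histones just downstream of the start carry the most of it. In hepatocytes, genes for plasma proteins are often covered by wide domains of acetylated histones, while genes used by every cell tend to have a compact peak over a start rich in CG dinucleotides. Cells short of oxygen stabilise hypoxia-inducible factors, which switch on glycolysis, blood vessel growth signals and the prolyl hydroxylases that limit the response.

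Marker genes were checked first against the hepatocyte label. In the 5 marker lists reported, a peak lay within 1 kb of 7 of 8 hepatocyte markers in each condition, among them Alb, Apoa1, Ttr and Hnf4a, while Serpina1a had none. No peak lay at any of 12 markers of stellate cells and fibroblasts or of 12 markers of sinusoidal endothelium. Kupffer cell markers had 1 of 12 (Cd68) and lymphocyte markers 1 of 11 (Cd79a), the same genes in both conditions. With 1 library per condition there is no replicate spread and no test of a difference. The 95% Wilson intervals given with shares cover counting error only, and the sequencing depth is unknown.

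Promoters of 3 genes whose peak was in the HR list only and of 3 whose peak was in the normoxia list only are printed first, because the classes differed in CG content. They were picked after their values were seen. They are from RefSeq (GRCm38.p6, the assembly of mm10), run 5′ to 3′ on the gene's strand from 250 bases before the start, with 50 bases from the start on, and CG dinucleotides are in capitals. Egln3 encodes a prolyl hydroxylase that marks hypoxia-inducible factors for destruction and is itself induced by them (chr12:54203825-54204124, minus strand, 16 CG). Nr4a3 encodes an orphan nuclear receptor of the immediate early response (chr4:48045055-48045354, plus strand, 26 CG). Kmt2c encodes a histone H3 lysine 4 methyltransferase (chr5:25498734-25499033, minus strand, 56 CG). On the normoxia side, Fga encodes the alpha chain of fibrinogen (chr3:83025903-83026202, plus strand, 3 CG). F11 encodes coagulation factor XI (chr8:45261982-45262281, minus strand, 6 CG). Mup3 encodes a major urinary protein, a pheromone carrier that liver secretes (chr4:62087268-62087567, minus strand, 2 CG). Mup3 belongs to a family of near-identical copies, so its reads may be shared with other copies.
Egln3: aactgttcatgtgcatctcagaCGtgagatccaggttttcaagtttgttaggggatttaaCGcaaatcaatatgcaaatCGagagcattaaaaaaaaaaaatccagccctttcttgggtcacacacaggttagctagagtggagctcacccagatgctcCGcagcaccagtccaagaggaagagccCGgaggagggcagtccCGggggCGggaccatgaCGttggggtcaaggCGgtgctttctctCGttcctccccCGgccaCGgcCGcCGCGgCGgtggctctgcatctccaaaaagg
Nr4a3: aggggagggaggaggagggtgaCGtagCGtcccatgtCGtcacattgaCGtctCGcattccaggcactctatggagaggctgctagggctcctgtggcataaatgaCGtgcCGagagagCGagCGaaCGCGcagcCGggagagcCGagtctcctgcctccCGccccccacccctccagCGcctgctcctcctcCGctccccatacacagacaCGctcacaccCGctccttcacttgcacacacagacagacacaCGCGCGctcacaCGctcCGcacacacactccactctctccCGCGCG
Kmt2c: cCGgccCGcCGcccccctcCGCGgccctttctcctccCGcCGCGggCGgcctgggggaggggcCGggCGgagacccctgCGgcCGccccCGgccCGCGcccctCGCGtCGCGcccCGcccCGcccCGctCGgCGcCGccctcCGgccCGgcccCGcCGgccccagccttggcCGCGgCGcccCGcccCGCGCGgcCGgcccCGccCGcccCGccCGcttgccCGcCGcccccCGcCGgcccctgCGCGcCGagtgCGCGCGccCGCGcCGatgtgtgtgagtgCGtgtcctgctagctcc
Fga: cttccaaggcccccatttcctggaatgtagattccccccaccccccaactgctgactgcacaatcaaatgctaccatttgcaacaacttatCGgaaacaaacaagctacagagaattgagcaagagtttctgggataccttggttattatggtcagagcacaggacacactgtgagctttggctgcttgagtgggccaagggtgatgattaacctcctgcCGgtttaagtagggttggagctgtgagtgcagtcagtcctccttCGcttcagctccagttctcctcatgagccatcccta
F11: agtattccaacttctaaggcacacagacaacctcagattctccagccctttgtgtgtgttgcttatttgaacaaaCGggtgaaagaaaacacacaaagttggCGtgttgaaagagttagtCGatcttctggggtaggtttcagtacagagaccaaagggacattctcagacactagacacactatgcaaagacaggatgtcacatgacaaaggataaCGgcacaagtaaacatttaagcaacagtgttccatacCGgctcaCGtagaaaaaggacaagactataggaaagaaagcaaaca
Mup3: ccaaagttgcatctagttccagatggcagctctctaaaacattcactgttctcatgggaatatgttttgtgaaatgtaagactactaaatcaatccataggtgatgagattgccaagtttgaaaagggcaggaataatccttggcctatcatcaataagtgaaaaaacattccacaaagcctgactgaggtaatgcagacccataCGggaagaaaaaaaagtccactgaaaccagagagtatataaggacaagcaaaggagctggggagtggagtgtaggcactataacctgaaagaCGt

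H3K9ac peaks were more numerous and narrower in HR. The median peak was 7790 bp wide in normoxia (95% order-statistic interval over peaks 7690 to 7880, quartiles 5780 and 10910) and 6400 bp in HR (6320 to 6480, quartiles 4720 and 8970). Despite having fewer peaks, the normoxia list covered 61.1 Mb of the genome and the HR list 57.8 Mb. Domains of at least 30 kb numbered 90 in normoxia, 1.38% of peaks, and 39 in HR, 0.514%. When the HR list was cut to its 6513 peaks of highest total signal, the length of the normoxia list, its median width was 6770 bp (6670 to 6870) and it covered 52.4 Mb, so the order of widths did not rest on the extra HR peaks. Peak signal is the authors' own value and was used to rank peaks within a list only. In bulk chromatin, fewer marked cells and less of the mark per cell cannot be told apart.

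Most sites were marked in both conditions. Of the HR peaks, 6139 of 7593 (80.9%, 80.0 to 81.7) overlapped a normoxia peak, and 1454 did not. Of the normoxia peaks, 5990 of 6513 (92.0%, 91.3 to 92.6) overlapped an HR peak, and 523 did not. The order of the unshared counts turned with list length: cut to equal length by total signal, 738 HR peaks and 857 normoxia peaks were unshared, and by maximum signal 1099 and 1150. Few peaks lay near the 1 bp limit. Among HR peaks, 6 were shared by less than 1 kb and 18 unshared ones lay less than 1 kb from a normoxia peak, and the normoxia counts were 2 and 10.

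Sharing followed rank. In the lowest 25% of each list by total signal, 41.7% of HR peaks (39.5 to 44.0) and 79.6% of normoxia peaks (77.6 to 81.5) were shared. In the highest 10% the shares were 99.9% and 99.7%. HR-only peaks had a median width of 4710 bp and a median percentile of 14.5 within their list, where 100 is the highest. Normoxia-only peaks were wide, 8370 bp at the median, but also low in rank, at percentile 17.8. By maximum signal their medians were 29.8 for HR-only and 10.03 for normoxia-only peaks, so the normoxia-only peaks were wide and low and the HR-only peaks narrow and less low.

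**Figure D1:**
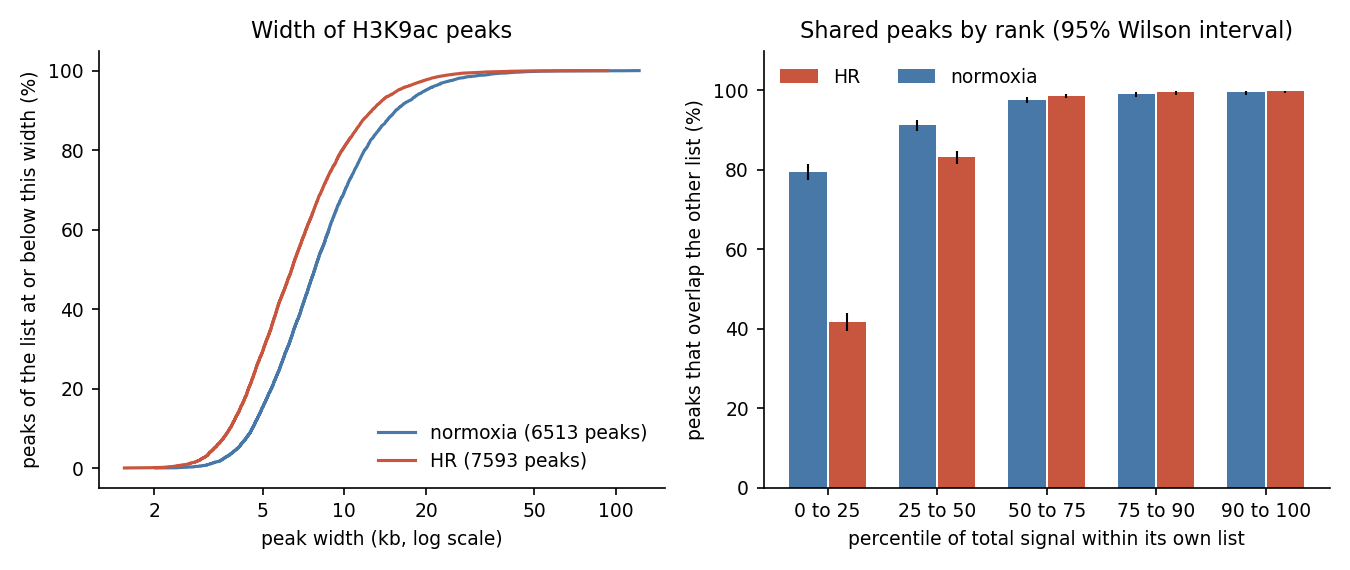
Left, the cumulative share of H3K9ac peaks (%) by width (kb, log scale) in the normoxia and HR lists; right, the share of peaks (%) that overlap the other list by percentile of total signal within the own list, with 95% Wilson intervals. The HR curve lies to the left of the normoxia curve (medians 6400 and 7790 bp), and unshared peaks sit mainly in the lowest 25% of the HR list, where 41.7% were shared.

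The sites that kept H3K9ac in both conditions were narrower in HR. There were 5743 peaks that paired 1 to 1 between the lists, with median widths of 7590 bp in normoxia and 6750 bp in HR. The HR peak was the narrower in 3620 pairs (63.0%) and the wider in 2110, and the median ratio of HR to normoxia width was 0.923 (quartiles 0.732 and 1.09). The HR peak lay inside the normoxia peak in 35.1% of pairs and reached past it at both ends in 15.8%. The maxima lay close together, 90 bp apart at the median and within 500 bp in 81.2% of pairs. Narrowing went with normoxia width, with a median ratio of 1.10 for pairs under 5 kb, 0.922 from 5 to 10 kb, 0.804 from 10 to 20 kb and 0.868 from 20 kb on. These bins sort the pairs by one of the widths compared, so they are a description only. In bases, 44.1 Mb lay in both lists, 12.3 Mb of shared sites were covered in normoxia only and 5.77 Mb in HR only. Signal ranks over the pairs had a Spearman rho of 0.798 between the conditions for total signal and 0.598 for mean signal, given as a description over peaks that share their 2 libraries.

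At gene starts the median change in extent was larger on the side of the transcribed gene. For 2422 pairs that covered the start of 1 gene, H3K9ac reached 1867 bp upstream and 4884.5 bp downstream of the start at the median in normoxia, and 1756 and 4285 bp in HR. The maximum lay downstream of the start in 83.6% of these pairs in normoxia and 86.0% in HR.

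The widest normoxia domains were often broken up in HR. There were 179 normoxia peaks that each overlapped 2 or more HR peaks, with a median width of 23100 bp, against 38 HR peaks that overlapped 2 or more normoxia peaks. The following domains were picked from the widest after their values were seen. The widest lay in Zbtb16, which encodes a zinc finger transcription factor: 121.76 kb in normoxia, and 3 peaks in HR. These HR peaks were 98.3 kb wide together, the widest 52.53 kb. At Mtss1, which encodes an actin-binding scaffold protein, 112.16 kb in normoxia gave way to 3 HR peaks, 80.79 kb together, the widest 40.54 kb. At Septin9, which encodes a cytoskeletal GTPase, 59.01 kb gave way to 2 HR peaks, 19.07 kb together, the widest 10.81 kb. Zmiz1, a transcriptional co-regulator gene, had 105.06 kb in normoxia and 2 HR peaks, 86.05 kb together, the widest 74.51 kb. Not every broad domain behaved so, since the domain at Shb, an adaptor protein gene, measured 82.86 kb in normoxia and 93.25 kb in HR. The domain at Frmd8 measured 58.84 kb in normoxia and 61.53 kb in HR, and that at Myh9 47.26 and 47.25 kb.

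Plasma protein genes stood among those whose highest-ranked peak was narrower in HR. The widths below are of a gene's highest-ranked peak in each list. At Apoe, C3, Masp1, Ahsg, Cps1 and Hp these peaks did not pair 1 to 1. Their HR width can therefore be that of 1 piece of a normoxia domain. Apoe, which encodes a lipoprotein ligand, had a 34400 bp peak in normoxia and a 9530 bp peak in HR. One peak covered the apolipoprotein genes Apoa1 and Apoc3, with 21560 bp in normoxia and 11540 bp in HR. C3, the central complement component, had 36760 and 16390 bp. Masp1, a protease of the lectin pathway, had 26610 and 11260 bp. Trf, which encodes the iron carrier transferrin, had 16200 and 7150 bp, and Ahsg, which encodes the plasma glycoprotein fetuin-A, had 27440 and 15600 bp. The urea cycle gene Cps1 had 35370 and 19730 bp. Others kept their width: the vitamin D carrier gene Gc had 17790 and 17960 bp, and the haptoglobin gene Hp had 18120 and 18050 bp. Cp, which encodes the copper protein ceruloplasmin, had the wider peak in HR, with 15340 bp in normoxia and 20910 bp in HR.

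Of the hepatocyte secreted proteins and markers, 11 of 16 had a peak within 1 kb in normoxia and the same 11 had one in HR. The HR peak was the narrower at 9 of these 11, where Apoa1 and Apoc3 share a peak, beside 64.1% of all 6665 genes with H3K9ac in both lists. The median width ratio was 0.633 beside 0.911 for all. Narrower peaks were not particular to this list. Among targets of hypoxia-inducible factors the HR peak was narrower at 11 of 14 genes (0.833) and wider at 3. Several of these genes had wide normoxia peaks, such as Apoe (34400 bp). Of all 1 to 1 pairs with normoxia widths of 10000 to 20000 bp, 77.4% were narrower in HR (median ratio 0.804). From 20000 bp on it was 77.2% (0.868). The count of 9 of 11 is thus close to that of wide peaks, and a difference at matched width was not tested. The median share of gene length covered over the list was 48.7% in normoxia and 31.8% in HR. Cytosolic ribosomal protein genes, which every cell uses, had H3K9ac at 22 of 22 in both conditions, with a median width ratio of 0.953 and 14 of 22 narrower. Acly itself, which was intact in both groups, had a 12950 bp peak in normoxia and 5680 bp in HR.

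**Figure D2:**
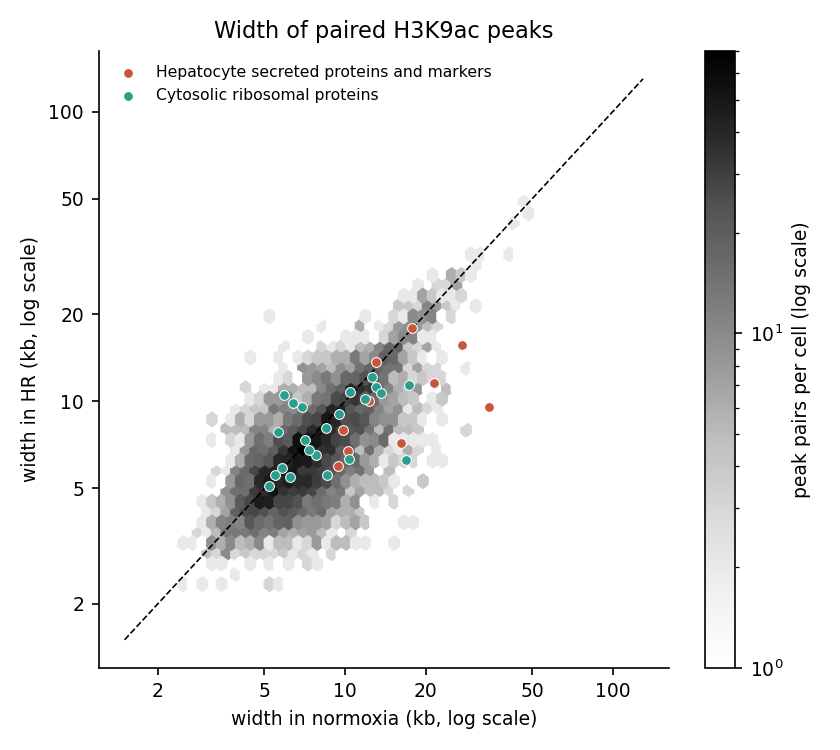
Width in HR against width in normoxia (kb, both axes log scale) for the 5743 peaks that paired 1 to 1 (grey cells, number of pairs), with the highest-ranked peak of each gene of the hepatocyte secreted list and of the ribosomal protein list as points, including some points outside the pairs; the dashed line marks equal width. At 9 of 11 secreted protein genes the point lies below the line, with Apoe the farthest (34400 bp and 9530 bp).

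Ranks were then compared over the same 6029 genes whose peaks paired 1 to 1, with the rank taken over the pairs. A gene's rank by total signal was lower in HR at 38.3% of these genes. Coagulation genes were lower at 8 of 8 (median difference -9.96 percentile points) and complement genes at 6 of 6 (-11.53), beside a median of 2.32 over all. F2 (prothrombin) stood at percentile 74.4 of the pairs in normoxia and 59.0 in HR, and Serpind1 (heparin cofactor II, a thrombin inhibitor) at 93.9 and 67.8. Acute phase genes were lower at 6 of 7 and hepatocyte secreted proteins at 7 of 9, while ribosomal protein genes were lower at 3 of 22. Total signal includes width. By mean signal, which divides it by width, coagulation genes were lower at 7 of 8 and complement at 5 of 6, beside 48.6% of all, but secreted proteins at only 5 of 9. By maximum signal the counts were 8 of 8, 4 of 6 and 4 of 9, beside 46.7%. F2, with 9500 bp in normoxia and 6660 bp in HR, differed by measure. Its rank difference, HR minus normoxia, was 3.99 points by mean signal and -37.2 by maximum signal. At Serpind1 the difference by mean signal was -7.85. The 8 coagulation genes include F7 and F10, which share 1 peak, and the 9 secreted protein genes include Apoa1 and Apoc3, which share another. The 6 complement genes include C2 and Cfb, which share the peak that gives the complement median. All of these comparisons share the same 2 libraries.

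Position set the unshared peaks of the 2 lists apart. An HR-only peak covered a listed gene start in 945 of 1454 cases (65.0%, 62.5 to 67.4), close to the share for shared HR peaks (67.0%). A normoxia-only peak did so in 123 of 523 cases (23.5%, 20.1 to 27.3). Most normoxia-only peaks lay in a gene away from a listed start (53.7%) or outside genes (22.8%), against 28.8% and 6.19% of HR-only peaks. The order held at each width: under 5 kb 70.9% of HR-only and 8.89% of normoxia-only peaks covered a start, and from 12 kb on 27.9% and 18.8%, where the intervals overlap. It also held with lists of equal length by total signal, at 68.6% and 30.8%. With only the upper part of each list, 3256 peaks, the shares were 73.5% and 44.8%.

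Other lists of the series separated the same classes. H3K27ac, another acetylation mark, found at active promoters and enhancers, was present in normoxia at 18.9% of HR-only peaks (17.0 to 21.0), 65.0% of shared HR peaks and 77.2% of normoxia-only peaks (73.5 to 80.6). In the HR H3K27ac list the shares were 36.0%, 83.4% and 76.7%, so most normoxia-only H3K9ac peaks lay at sites listed for H3K27ac in both conditions. H3K9ac in HR hepatocytes that lack Acly, from mice with floxed Acly and a Cre driven by the albumin promoter, was listed at 71.2% of HR-only peaks (68.8 to 73.5), 93.1% of shared HR peaks and 38.6% of normoxia-only peaks (34.5 to 42.9). The wild-type lists have all peak starts on a 10 bp grid and that knockout list only 10.04%, so the lists were made differently. With only the upper part of each list, which also makes other peaks unshared, the normoxia H3K27ac shares were 48.4% of HR-only (44.3 to 52.6) and 80.0% of normoxia-only peaks (76.6 to 83.1). There the HR H3K27ac shares were 86.4% and 84.9%, and the knockout H3K9ac shares 97.1% and 86.7%.

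**Figure D3:**
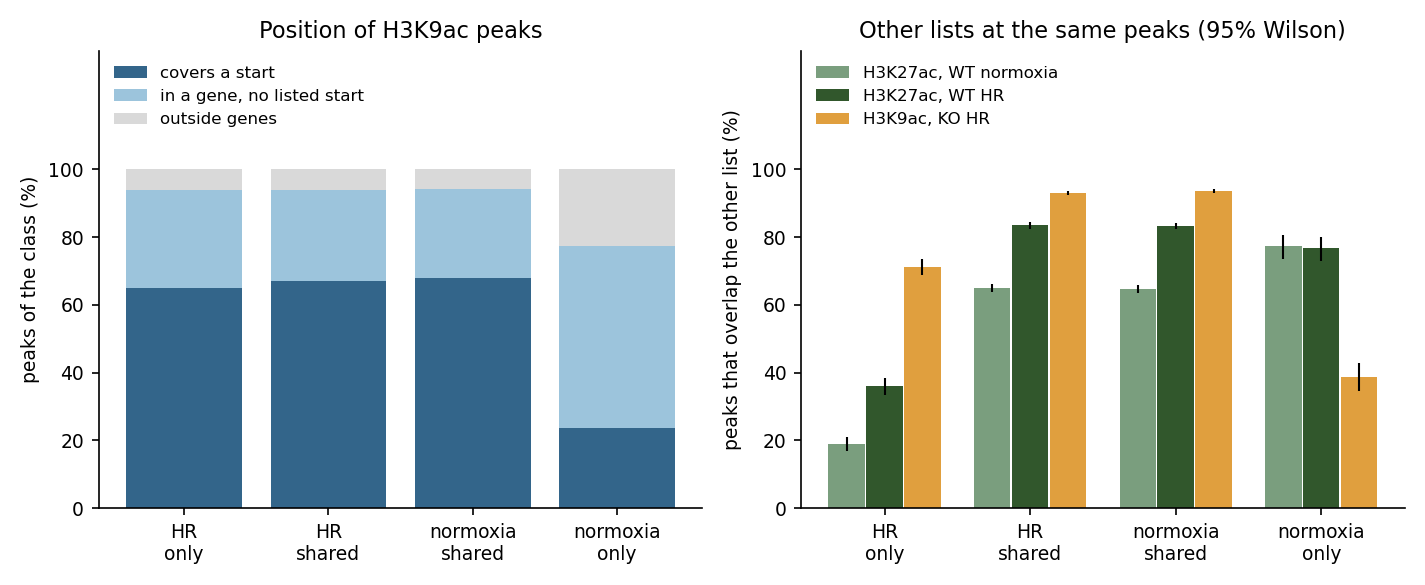
Left, the share of peaks (%) that cover a listed gene start, lie in a gene without one or lie outside genes, for HR-only, shared and normoxia-only H3K9ac peaks; right, the share of the same peaks (%) that overlap H3K27ac of wild-type (WT) normoxia, H3K27ac of WT HR or H3K9ac of Acly knockout (KO) HR, with 95% Wilson intervals. Normoxia-only peaks covered a start in 23.5% of cases and HR-only peaks in 65.0%, while H3K27ac of WT normoxia was listed at 77.2% and 18.9%.

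Of 21887 coding genes, 6982 had an H3K9ac peak within 1 kb in normoxia (31.9%) and 7961 in HR (36.4%). Both lists had one at 6665 genes, the HR list only at 1296 genes (5.92%) and the normoxia list only at 317 genes (1.45%). These shares are the background for the gene lists. With lists of equal length, 31.9% of genes were marked in normoxia and 32.6% in HR, HR-only genes numbered 731 (3.34%) and normoxia-only genes 569 (2.6%). HR-only genes came almost all from an unshared peak (1219 of 1296), while 112 of the 317 normoxia-only genes were reached only by the far end of a shared peak.

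Genes of the hypoxia response had more members marked in HR. Of 25 targets of hypoxia-inducible factors, 14 had H3K9ac in normoxia and 19 in HR, with 5 HR-only members, beside 5.92% of all genes, and no normoxia-only member. With lists of equal length the counts were 14 and 18. Egln3 had an 11310 bp peak over its start in HR (chr12:54195521-54206830, percentile 77.6 of its list), while the nearest normoxia peak was 103910 bp away. That percentile is by total signal, and the Egln3 peak stood at 14.2 by maximum and 29.7 by mean signal. The other members ranked lower by total signal. P4ha1, a collagen prolyl hydroxylase subunit gene, stood at percentile 43.4 (5080 bp), and Ndrg1, a stress-induced gene, at 28.7 (6000 bp). Kdm3a, a histone H3 lysine 9 demethylase gene, stood at 15.5 (3430 bp), and P4ha2 at 7.62 (4550 bp). H3K27ac was already listed in normoxia at Egln3, P4ha1 and Kdm3a but not at Ndrg1 or P4ha2. The knockout HR list had H3K9ac at all of these but Kdm3a. Of 14 members marked in both conditions, 11 had the narrower peak in HR and 3 the wider (median width ratio 0.833). Of all genes with H3K9ac in both lists, 64.1% had the narrower peak in HR. Among members marked in both conditions, Adm, which encodes the vasodilator adrenomedullin, had 6540 bp in normoxia and 8640 bp in HR and stood at percentile 15.3 of the pairs in normoxia and 67.2 in HR. Bnip3, a mitophagy receptor gene, stood at 78.4 and 88.6. Vegfa, the angiogenic growth factor gene, was narrower in HR, with 16800 and 11950 bp, but stood at 93.6 and 96.2. By maximum signal its rank was 44.5 points higher in HR. The glucose transporter gene Slc2a1 had 26090 and 25880 bp and stood at 97.7 and 97.5.

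Coagulation genes went the other way. Of 19 genes, 14 had H3K9ac in normoxia and 9 in HR, with 5 normoxia-only members, beside 1.45% of all genes, and no HR-only member. With lists of equal length the counts were 14 and 6. The 5 genes were F5 (factor V, a cofactor of prothrombin activation), F11, Klkb1 (plasma prekallikrein), Serpinc1 (antithrombin) and Serpinf2 (the plasmin inhibitor antiplasmin), so both procoagulant genes and inhibitors were among them. Their normoxia peaks stood at percentile 61.4 for F5 (13420 bp), 50.1 for the single peak shared by F11 and Klkb1 (10570 bp), 28.4 for Serpinc1 (7480 bp) and 7.63 for Serpinf2 (8300 bp). H3K27ac was listed at all 5 in both conditions, and the knockout HR list had H3K9ac at F5 and Serpinc1.

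Complement genes had H3K9ac at 13 of 20 in normoxia and 11 in HR (8 with lists of equal length). Over all coding genes, 31.9% were marked in normoxia and 36.4% in HR, 1.45% normoxia-only and 5.92% HR-only. C1ra, C8a and C4bp were normoxia-only and Mbl2, a mannose-binding lectin gene, was HR-only at percentile 5.05. Of 16 genes of bile acid synthesis and transport, 11 were marked in normoxia and 8 in HR, also with lists of equal length. In the upper part of both lists the count was 6 in each condition, so this difference was absent there. The normoxia-only members of the whole lists were Abcb11, the bile salt export pump gene, with 11040 bp, Hsd3b7 with 12980 bp and Akr1d1 with 12970 bp. Hsd3b7 and Akr1d1 both encode enzymes of bile acid synthesis. Of 22 acute phase genes, 9 were marked in normoxia and 8 in HR. With lists of equal length the counts were 9 and 7, and in the upper part of both lists 8 and 4. In the whole lists the missing one was Fga, with a 16030 bp normoxia peak at percentile 65.7. Its neighbour Fgb, the fibrinogen beta chain gene, kept a peak of 12610 bp in normoxia and 10660 bp in HR.

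Some lists of general cell functions had HR-only members and no normoxia-only ones. Over all coding genes, 31.9% were marked in normoxia and 36.4% in HR, and 5.92% were HR-only. Of 14 genes of acetyl-CoA supply, 7 were marked in normoxia and 10 in HR, also with lists of equal length, but 6 and 7 in the upper part of both lists. The added genes were Acss2, which makes acetyl-CoA from acetate (percentile 16.2), Pdha1, a subunit gene of pyruvate dehydrogenase (22.3), and Pdk2, a kinase gene that restrains that enzyme (24.6). Of 21 genes of apoptosis and other cell death, 10 were marked in normoxia and 14 in HR, with Casp8, Fadd and Ripk1 of death receptor signalling and Bcl2l11, a pro-apoptotic BCL2 relative, at percentiles 9.64, 17.5, 22.2 and 29.6. In the upper part of both lists the count was 7 in each condition, where 18.3% of all genes were marked in normoxia and 18.6% in HR, so this difference was absent there. Of 22 cell cycle genes, 7 were marked in normoxia and 10 in HR, and 4 and 5 in the upper part. Of the 3 added genes, the replication gene Mcm5 had an unshared HR peak (percentile 14.2), while Mcm2 and Cdc20 were reached by peaks shared with normoxia.

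Genes of fatty acid and triglyceride synthesis had H3K9ac at 17 of 20 in normoxia and 16 in HR, but at 17 and 13 with lists of equal length. In the whole lists Elovl5, a fatty acid elongase gene, was HR-only, and Thrsp and Pnpla3, a lipogenic regulator gene and a lipid droplet protein gene, were normoxia-only. Periportal genes had 3 and 5 of 14, with the urea cycle gene Ass1 and the liver glutaminase gene Gls2 HR-only. In the upper part of both lists 1 periportal gene was marked in each condition. Hepatocyte transcription factors had H3K9ac at 23 of 25 in both conditions, glycolysis genes at 15 of 16 and NRF2 targets, which protect against oxidants, at 17 of 20. Immediate early genes had 16 and 17 of 22, with Klf4 and Nr4a2 HR-only, and Nr4a1 normoxia-only by the end of a wide peak 21310 bp long that did not cover its start. Over all 31 lists, 588 genes in the table, 433 had H3K9ac in either condition, 33 in HR only and 22 in normoxia only. The HR-only share of the lists was near the 5.92% of all coding genes, and the normoxia-only share was above the 1.45%.

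**Figure D4:**
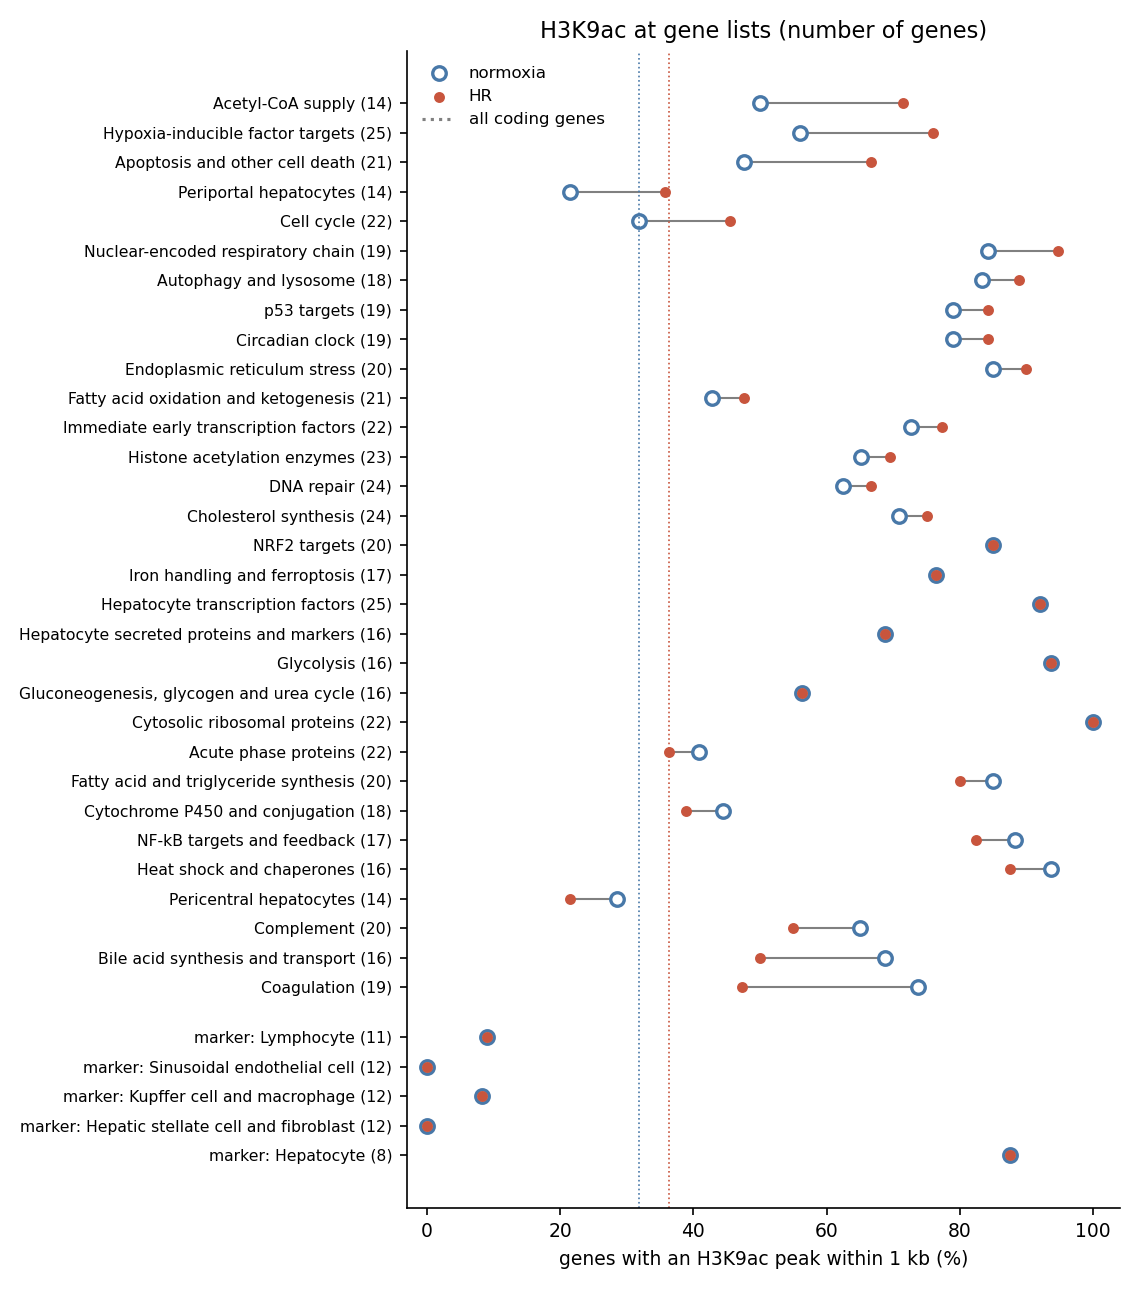
The share of genes (%) with an H3K9ac peak within 1 kb in normoxia (open circles) and HR (filled circles) for 31 gene lists and 5 marker lists, with the number of genes in brackets and all coding genes as dotted lines (31.9% in normoxia, 36.4% in HR). Hypoxia-inducible factor targets had 14 and 19 of 25, coagulation genes 14 and 9 of 19, and the stellate and endothelial markers had none.

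The unshared peaks of highest rank over a gene were named by rule, 12 per list. The HR-only ones lay between percentiles 55.8 and 80.8, led by Chd9, a chromatin remodeler gene (80.8, 7970 bp), Phf1, a gene of the Polycomb system (80.6, 15400 bp), Bpnt1, a nucleotidase gene (78.5, 15900 bp), Egln3 and Kmt2c (72.2, 5550 bp). Nr4a3 (56.3, 6230 bp) was also among them. By maximum signal Chd9 stood at 89.7, Phf1 at 20.3, Bpnt1 at 79.7, Egln3 at 14.2 and Kmt2c at 32.7. By mean signal they stood at 73.1, 12.6, 9.61, 29.7 and 88.6. Peaks over Phf1 and Bpnt1 also covered the starts of Cuta and Iars2. All 12 promoters held at least 10 CG. Of these 12 peaks, 10 were in the knockout HR H3K9ac list, 7 in the HR H3K27ac list and 4 in the normoxia H3K27ac list. Over all HR-only peaks the shares were 71.2%, 36.0% and 18.9%.

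The normoxia-only ones lay between percentiles 43.6 and 94.96. The highest was in Lipc, the hepatic lipase gene, a 23960 bp peak (chr9:70920341-70944300) at percentile 94.96 by total signal but 16.6 by maximum. Next came Gna12, a G protein subunit gene (71.3, 15960 bp), Fga (65.7) and F5 (61.4). The others included Mup3 (50.6, 6240 bp), F11, Upb1, which acts in pyrimidine breakdown (44.0), and Pcx, the pyruvate carboxylase gene (43.6). Lipc, Gna12 and Pcx, and Chd9 and Ip6k1 on the HR side, had another peak in both lists, so those genes kept H3K9ac elsewhere. Of these 12 peaks, 9 were in the knockout HR H3K9ac list and 9 in the H3K27ac list of each condition. Over all normoxia-only peaks the share in that knockout list was lower, 38.6%. The normoxia and HR H3K27ac lists held 77.2% and 76.7% of them. Of the 12 genes' promoters, 6 held at least 10 CG. The promoters of Pcx (20 CG) and Lipc (4 CG) are in that count but lie outside the named peaks.

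Among peaks that paired 1 to 1 over a gene start, the largest differences in rank went with width. Ranks here are percentiles over the pairs. Acsl1, which activates fatty acids for metabolism, stood at 79.3 with 17600 bp in normoxia and at 10.2 with 4300 bp in HR. By maximum signal it stood at 9.12 and 37.2, so its order by maximum signal was the reverse of that by total signal. Synrg, a vesicle trafficking gene, stood at 83.3 (26460 bp) and 6.83 (6150 bp), and Pcx at 69.8 (15400 bp) and 6.11 (4560 bp). By maximum signal Synrg stood at 28.5 and 18.997 and Pcx at 2.18 and 9.19. In the other direction, Hypk, a gene for a partner of the N-terminal acetyltransferase complex, stood at 6.70 (5170 bp) in normoxia and 82.2 (19140 bp) in HR. By maximum signal it stood at 51.9 and 46.0, and by mean signal at 37.2 and 5.03. Snx33, a sorting nexin gene, stood at 12.4 (4510 bp) and 85.3 (7980 bp), and it was also higher in HR by maximum signal, at 17.0 and 69.4. Nop56, a gene of ribosomal RNA modification, stood at 12.7 (5690 bp) and 77.5 (12350 bp), but at 34.5 and 30.3 by maximum signal and 33.5 and 23.6 by mean signal.

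CG content differed between the classes by less than between the printed examples, whose normoxia-only promoters are all CG-poor. Promoters were available for 17492 coding genes. The median number of CG dinucleotides per 300 bases was 24 where both lists covered the start (4833 genes), 22 where HR only did (1076 genes, 6.15%), 15 where normoxia only did (186 genes, 1.06%) and 6 where neither did. At least 10 CG were found in 89.6% of HR-only promoters (87.6 to 91.3) and in 62.9% of normoxia-only promoters (55.8 to 69.5), beside 57.2% of all. Among normoxia-only promoters 26.9% had 5 or fewer, including Fga (3 CG), Mup3 (2 CG), F5 (4 CG) and Serpinc1 (4 CG). Others were CG-rich, such as Dhrs13 (32 CG), Nudt2 (20 CG) and Arrdc2 (17 CG).

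The core of the hypoxia response element, ACGTG on either strand, was present in 25.7% of HR-only promoters, 28.8% of those covered in both lists, 17.7% of normoxia-only ones and 20.7% of all. It contains a CG, and within promoters of at least 10 CG the shares were 26.9% (24.2 to 29.8), 30.0%, 23.9% and 27.6%, with overlapping intervals for HR-only promoters and all. Single members had it: it began at position -229 from the start in Egln3, -145 in Nr4a3 and -16 in P4ha1, and F11 had one at 9. The E-box CACGTG, which holds the same letters, was in 12.1% of HR-only and 11.3% of all such promoters. The AP-1 motif TGANTCA was in 3.94% and 3.79%, TGACGT of the cyclic AMP response element in 13.6% and 12.6%, and CCAAT in 36.4% and 38.0%, each on either strand.

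**Figure D5:**
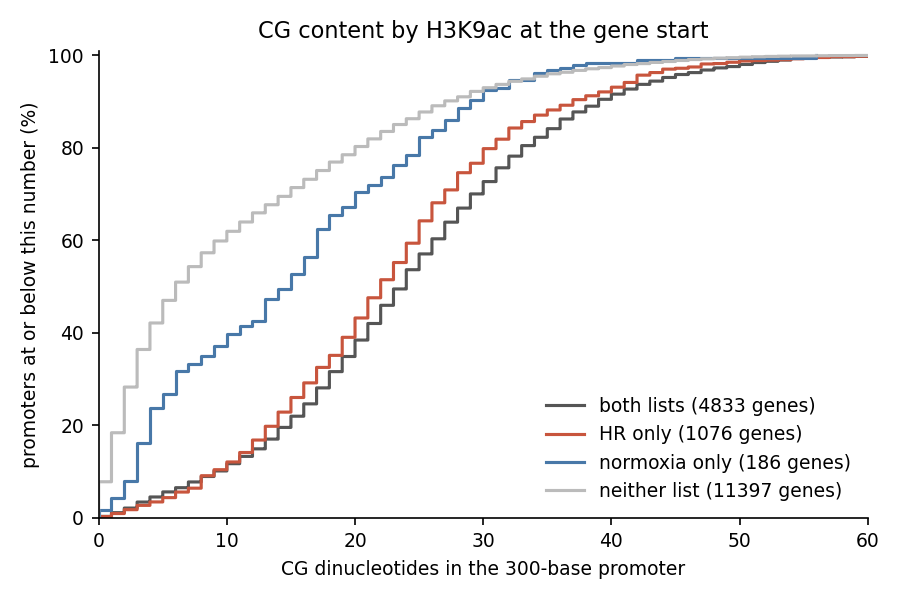
The cumulative share of promoters (%) by number of CG dinucleotides in 300 bases, for genes whose start was covered by H3K9ac in both lists, in HR only, in normoxia only or in neither. The HR-only curve follows the curve of both lists (medians 22 and 24), and the normoxia-only curve lies between these and the curve of neither (medians 15 and 6).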

How the data were processed

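H3K9ac CUT&RUN of wild-type primary hepatocytes was compared between normoxia and HR, 1 library each, grouped by the sample titles. Each deposited peak carries a total and a maximum signal from the authors. How they scaled it is not given in the sources here, so signal served to order the peaks of one list, and mean signal is the total divided by peak width. Per the submitters' processing notes, the series used Trimmomatic, kallisto and the genome build mm10. Neither aligner nor peak caller was named: both are not given in the sources used here. Sequencing depth is unknown, and no column of other samples was in these files.

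Overlap means at least 1 shared base. Gene positions came from RefSeq's GRCm38.p6 table (21887 coding genes), and 17492 of them had a start and a promoter of 300 bases in the promoter table. A gene counted as marked with a peak within 1 kb, and its highest-ranked peak was described. Of the listed genes, Protz, Hfe2 and Trac matched no entry. Named genes were, per list, the 12 of the unshared peaks of highest total signal percentile over a gene, 1 per peak, and the 6 largest differences in rank each way among 1 to 1 pairs. Members and gene lists were chosen with earlier results of these data known. No test was made, since each condition has 1 library. The overlap code was tested on simulated data. Alternatives were lists cut to equal length or to the upper part by total signal, or cut by maximum signal, other overlap and gene windows, merging across gaps of up to 2 kb, and starts only. RNA and IgG samples were not analysed here, and cholangiocyte markers are not reported here. Python 3.11.15, numpy 2.4.6, pandas 2.3.3, scipy 1.17.1 and matplotlib 3.10.9 were used.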

Additional observations from a re-analysis of the deposited data

How the results depend on the processing

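With 1 library per condition, nothing here has a replicate check. No paired analysis was possible because each condition has 1 library. Each list's own cutoff and depth limit what is called unshared, and most unshared peaks were of low rank. The cuts below leave fewer peaks by construction; the cause of other shifts was not tested. Of 99 alternative values, 43 stayed within their interval or within 1.5 times the main count and 56 moved. With lists of equal length by total signal, 88.7% of HR and 86.8% of normoxia peaks were shared (738 and 857 unshared), the HR median width was 6770 bp, genes marked in 1 condition numbered 731 in HR and 569 in normoxia, and unshared peaks covered a start in 68.6% (HR) and 30.8% (normoxia). In the upper part of the lists, 83.3% and 82.2% were shared, 543 HR peaks were unshared, genes numbered 686, 608 and 3389 in both, and starts were covered in 73.5% and 44.8%. By maximum signal, 83.1% and 82.3% were shared, 1150 normoxia peaks were unshared, and starts were covered in 73.0% and 27.7%. Requiring 50% of a peak to be covered, 78.7% and 84.7% were shared, 997 normoxia peaks were unshared, and 46.3% of these covered a start. Counting only covered starts gave 186 normoxia-only genes. The median percentile of HR-only peaks was 29.8 by maximum and 33.2 by mean signal, and that of normoxia-only peaks 10.03 and 12.3. With 50% of the peak covered by the other list, knockout H3K9ac was at 41.3% of HR-only and 11.7% of normoxia-only peaks, knockout H3K27ac at 47.0% and 67.5%, and FLAG-tagged ACLY at 2.27% and 0.765%. The settings for starts covered by unshared peaks above, and all that follow, were added after seeing the data. Normoxia H3K27ac was at 48.4% (upper part), 12.2% (maximum signal) and 23.5% (less than 50% covered) of HR-only peaks, and at 68.4% (equal length) and 66.0% (less than 50% covered) of normoxia-only peaks. HR H3K27ac was at 39.7% (equal length), 86.4% (upper part), 31.7% (maximum) and 40.7% (less than 50% covered) of HR-only peaks, and at 71.6%, 84.9% and 81.8% (the first 3 settings) of normoxia-only peaks. Knockout H3K9ac was at 77.6%, 97.1% and 78.7% (the same 3) of HR-only peaks, and at 52.5%, 86.7%, 57.5% and 63.6% (all 4) of normoxia-only peaks.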

Other observations

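On the X chromosome the normoxia list had 43 peaks and the HR list 74. HR-only peaks were 35 of the 74, a larger share than 1454 of 7593 over the whole list. Normoxia-only peaks were 4 of the 43, close to the share over the whole list, 523 of 6513. The sex of the mice is not given. The lists of FLAG-tagged ACLY could be set beside only 1 condition, since the normoxia list holds 1 peak and the HR list 3666. HR sites of FLAG-tagged ACLY overlapped 24.5% of shared HR H3K9ac peaks (23.5 to 25.6), 15.3% of HR-only peaks (13.5 to 17.2) and 12.6% of normoxia-only peaks (10.04 to 15.7). Of the HR-only peaks, 405 were in both the knockout HR H3K9ac list and the HR H3K27ac list, and 301 (20.7%) were in neither.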
